A study of Homo sapiens with 4 samples.

Results

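The genes described here encode the proteins of the mitochondrial ribosome. They were chosen by symbol alone, as every MRPL or MRPS symbol followed by a number and at most 1 of the letters A to C, and 77 of the 26506 genes in the tables met this rule. Their RNA was measured by sequencing in HeyC2 and SKOV3, which are established lines of ovarian cancer cells. Each line was transfected with 3 µg of a pCMV6/TET1 plasmid (TET1-reprogrammed cells) or with the same amount of empty plasmid (control) using lipofectamine, and both arms were then kept in 400 µg/ml Geneticin, so the controls carry the transfection and the selection too. TET1 encodes a dioxygenase that oxidizes 5-methylcytosine in DNA, and the study asked how its overexpression changes mitochondrial and metabolic genes. The expression of TET1 was driven from a plasmid promoter, and the sources used here do not say whether the selected cells were a pool or a clone. Each of the 4 conditions had 1 library, so the differences between conditions could not be checked against replicates, and neither a test between conditions nor a p-value is given.

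The mitochondrial ribosome translates the messenger RNAs encoded by mitochondrial DNA, all of which specify core subunits of the respiratory chain and ATP synthase. Its ribosomal RNAs come from mitochondrial DNA, whereas all its proteins are encoded in the nucleus, translated in the cytosol and imported. MRPL genes encode proteins of the large subunit, which joins amino acids, and MRPS genes those of the small subunit, which reads the messenger RNA. The lower numbers (MRPL up to 36 and MRPS up to 21) name proteins with a counterpart in bacterial ribosomes, and the higher numbers name proteins gained in the evolution of mitochondria. The names do not always match the place: MRPS30 and MRPS18A sit in the large subunit, MRPS18A, MRPS18B and MRPS18C are 3 versions of a single bacterial protein, and MRPS36 has since been assigned to a dehydrogenase complex. Counted by symbol, 48 of the 77 genes were MRPL and 29 were MRPS genes, and 44 belonged to the bacterial type by number and 33 to the mitochondrial type.

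Promoter sequences are shown for the genes on which the results turn. MRPS6 had the largest change in HeyC2, MRPL46 and MRPS11 are a divergent pair of members that start next to each other, MRPS9 and MRPL54 were the highest and lowest changes in SKOV3, and MRPL51 was the lowest in HeyC2. Each window runs from 250 bases before to 50 bases after the annotated start, from RefSeq on GRCh38.p14, and is written 5′ to 3′ on the strand of the gene. Capitals mark a match, on either strand, to a short motif associated with NRF1 (GCGCANGCG), GABPA (CCGGAAGT) or YY1 (AAGATGGCG), factors known for binding the promoters of nuclear genes for mitochondrial proteins. The NRF1 and YY1 motifs can share their end letters.
MRPS6, chr21:34073328-34073627, plus strand: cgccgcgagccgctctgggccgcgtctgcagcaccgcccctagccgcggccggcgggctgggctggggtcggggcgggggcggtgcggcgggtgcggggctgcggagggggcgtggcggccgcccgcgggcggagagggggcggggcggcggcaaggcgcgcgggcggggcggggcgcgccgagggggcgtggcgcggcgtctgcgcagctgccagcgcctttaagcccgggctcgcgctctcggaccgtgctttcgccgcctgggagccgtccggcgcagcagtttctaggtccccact
MRPL46, chr15:88467339-88467638, minus strand: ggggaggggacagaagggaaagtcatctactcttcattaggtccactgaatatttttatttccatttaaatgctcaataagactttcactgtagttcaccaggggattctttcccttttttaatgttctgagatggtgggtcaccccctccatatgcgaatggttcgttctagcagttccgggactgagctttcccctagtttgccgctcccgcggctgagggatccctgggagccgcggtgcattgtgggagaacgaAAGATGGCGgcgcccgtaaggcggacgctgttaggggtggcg
MRPS11, chr15:88467458-88467757, plus strand: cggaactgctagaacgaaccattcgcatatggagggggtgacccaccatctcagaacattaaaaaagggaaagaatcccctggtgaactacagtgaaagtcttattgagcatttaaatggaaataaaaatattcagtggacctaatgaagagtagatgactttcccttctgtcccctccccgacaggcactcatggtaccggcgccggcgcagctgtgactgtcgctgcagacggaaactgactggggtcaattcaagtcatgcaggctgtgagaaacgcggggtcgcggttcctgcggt
MRPS9, chr2:105037819-105038118, plus strand: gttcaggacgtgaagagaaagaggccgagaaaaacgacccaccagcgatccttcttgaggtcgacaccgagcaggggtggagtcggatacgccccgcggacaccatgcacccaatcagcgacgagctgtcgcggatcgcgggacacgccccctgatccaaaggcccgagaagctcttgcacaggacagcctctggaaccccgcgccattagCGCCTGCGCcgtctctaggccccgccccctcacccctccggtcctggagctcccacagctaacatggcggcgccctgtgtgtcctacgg
MRPL51, chr12:6493213-6493512, minus strand: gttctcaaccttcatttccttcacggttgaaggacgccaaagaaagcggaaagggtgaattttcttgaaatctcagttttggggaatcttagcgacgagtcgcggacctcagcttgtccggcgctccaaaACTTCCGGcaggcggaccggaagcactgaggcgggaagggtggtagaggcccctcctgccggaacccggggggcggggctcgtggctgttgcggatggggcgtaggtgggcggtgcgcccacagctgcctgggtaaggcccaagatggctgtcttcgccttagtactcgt
MRPL54, chr19:3762432-3762731, plus strand: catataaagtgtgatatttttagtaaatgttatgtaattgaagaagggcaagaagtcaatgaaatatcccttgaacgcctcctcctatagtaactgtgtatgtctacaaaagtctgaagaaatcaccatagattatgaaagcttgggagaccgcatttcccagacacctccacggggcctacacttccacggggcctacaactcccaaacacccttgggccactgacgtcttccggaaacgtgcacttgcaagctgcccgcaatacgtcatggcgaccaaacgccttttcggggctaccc
The window of SLC5A3, the myo-inositol transporter gene, is the same 300 bases as that of MRPS6, since RefSeq starts both genes at 1 position on 1 strand. The MRPL46 and MRPS11 windows overlap on opposite strands. Of the 77 genes, 68 had a promoter in the RefSeq table, and 32 of these (47.1%) held at least 1 of the 3 motifs, against 24.8% of the 10139 promoters of genes tested in these libraries and 13.1% of all 27305 promoters. The YY1 motif was found in 13 of 68 (19.1%, against 3.84% of the promoters of tested genes), the NRF1 motif in 13 (19.1%, against 14.8%) and the GABPA motif in 11 (16.2%, against 8.66%). A match to these letters is a description of the sequence. On the relative log2 scale defined next, the median changes of members with and without the YY1 motif were -0.19 and -0.08 in HeyC2 and -0.44 and -0.47 in SKOV3. With and without the NRF1 motif they were -0.13 and -0.09 in HeyC2 and -0.42 and -0.47 in SKOV3, and with and without the GABPA motif -0.05 and -0.10 in HeyC2 and -0.56 and -0.44 in SKOV3.

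The values are FPKM, fragment numbers per transcript length and sequencing depth. In the deposited TET1 columns every value had been multiplied by a constant that sets GAPDH to its level in the control, and this constant was recovered from the value steps as 3.23 in HeyC2 and 1.35 in SKOV3. All TET1 values below are FPKM before that scaling. The relative log2 change of a gene is log2((TET1 + 1)/(control + 1)) minus the median of the same ratio over all tested genes of the line, those with a mean of at least 1 FPKM (11894 genes in HeyC2 and 13013 in SKOV3), and it understates the change of low genes. The all-gene median before it was subtracted was 0.06 in HeyC2 and 0.19 in SKOV3. The estimated number of mapped fragments was between 6666615 and 7408384 per library, and the counting standard error (SE) given with a change covers this counting only. TET1 itself was at 0.20 FPKM in the control and 0.52 in the TET1 library of HeyC2, and at 0.43 and 1.80 in SKOV3. Of the markers of epithelial cells, KRT8 and KRT18 lay between 193 and 775 FPKM in the 4 libraries, and EPCAM and CDH1 were at most at 0.38 in HeyC2 and lay between 2.24 and 16.1 in SKOV3. The keratin KRT7 was at 290 FPKM in control and 1125 in TET1 cells of HeyC2 and at 1537 and 21.96 in those of SKOV3, and KRT19 was at 0.62 and 1.59 FPKM in HeyC2 and at 255 and 0.46 in SKOV3. Of the ovarian markers, PAX8 lay between 74.6 and 195 FPKM, WT1 and MUC16 were at most at 0.53, MSLN was at 46.6 and 77.5 in HeyC2 and at 10.3 and 0.08 in SKOV3, and ESR1 and FOLR1 were at most at 0.17 in HeyC2 and lay between 6.16 and 58.2 in SKOV3. The mesenchymal VIM lay between 835 and 7496 FPKM, FN1 was at 5557 and 2619 in HeyC2 and at 32.6 and 45.4 in SKOV3, and CDH2 lay between 21.1 and 43.2. PTPRC and CD3E of blood cells and PECAM1 of endothelium were at most at 0.28 throughout, and the endothelial CDH5 was at 18.9 and 94.6 in HeyC2 and at most at 0.19 in SKOV3. The part of these differences in the results was not tested.

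All 77 genes were expressed, and all passed the filter in both lines, with a lowest value of 3.85 FPKM (MRPL1, HeyC2 control). Their median in HeyC2 was 32.3 FPKM in the control and 32.6 with TET1, and in SKOV3 it was 38.9 and 37.8 FPKM, where the median of all tested genes lay between 10.4 and 12.4 FPKM. Summed over the 77 genes, the level in HeyC2 was 2910 FPKM in the control and 3121 with TET1, and in SKOV3 it was 4196 and 3466 FPKM. The sum was thus higher with TET1 in HeyC2 and lower with TET1 in SKOV3. Most of the rise in HeyC2 came from 1 gene, MRPS6, the highest member with TET1 there at 237 FPKM. As a share of all FPKM, the members took 0.60% in the control and 0.62% with TET1 in HeyC2. In SKOV3 they took 0.89% and 0.76%. In a whole-cell RNA sample, fewer cells of a kind and less RNA per cell cannot be told apart. The highest members on this per-length scale were MRPL41, a large subunit protein of the mitochondrial type, with 157 FPKM in control and 177 in TET1 cells of HeyC2 and 180 and 163 in those of SKOV3, and MRPS6, MRPS15, MRPS24 and MRPS34 of the small subunit. MRPS24 was at 165 and 150 FPKM in HeyC2 and at 84.7 and 63.8 in SKOV3, control first. MRPS34 was at 82.0 and 102 FPKM in HeyC2 and at 155 and 120 in SKOV3. The lowest members were MRPL1, MRPL22 and MRPS25, the last between 5.13 and 8.50 FPKM in the 4 libraries. The order of the genes by level was largely kept between the libraries of a line: across the 77 members, the log2 level in TET1 and control had a Pearson r of 0.91 in both lines, and the control levels of the lines had an r of 0.82, where the points share gene length and sequence and are not independent.

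**Figure D1:**
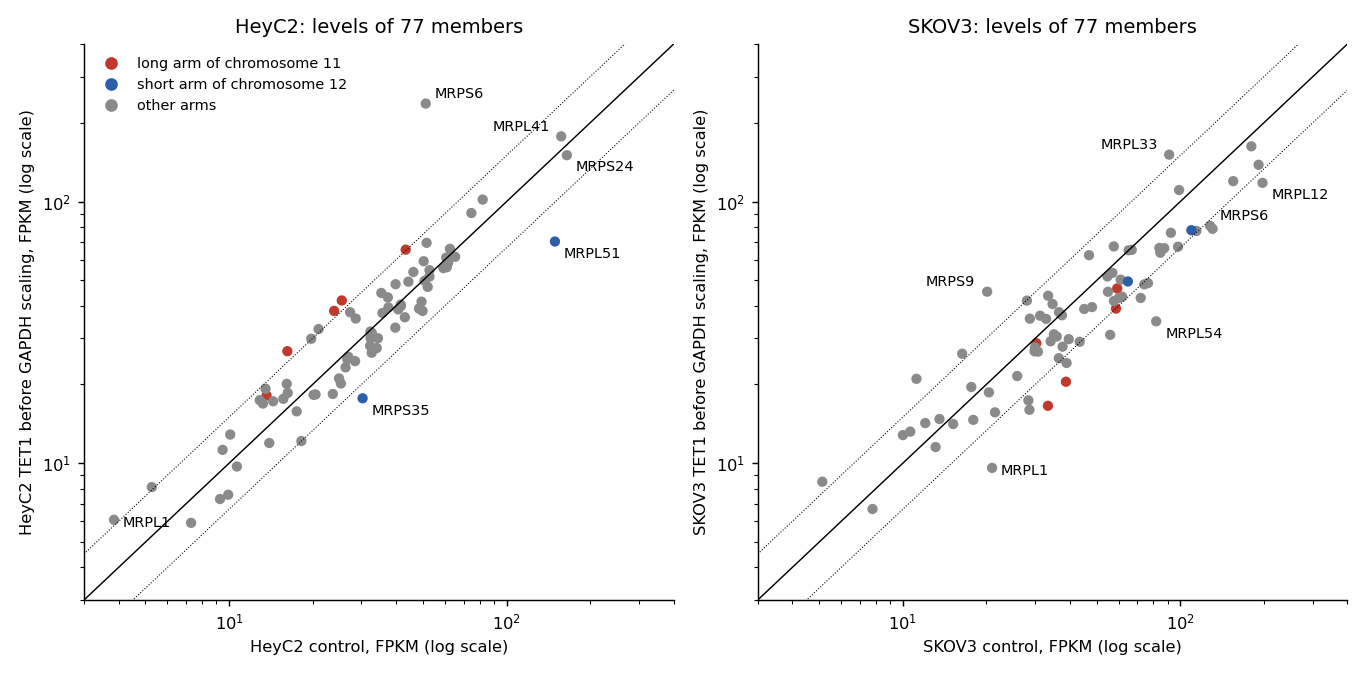
Level of each of the 77 genes in FPKM, control library on the horizontal and TET1 library before GAPDH scaling on the vertical log axis, for HeyC2 (left) and SKOV3 (right). The solid line marks equal levels and the dotted lines 1.5-fold of equal; each point is 1 gene in 1 library per condition. In HeyC2 most points lie between the dotted lines, while MRPS6 (51.1 and 237 FPKM) lies far above them and MRPL51 (149 and 70.4 FPKM) and MRPS35 below, and in SKOV3 most points lie below it.

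In HeyC2 the members as a group stayed near the change of all genes, with a few single genes far from it. The median relative log2 change was -0.09 and 43 of 77 lay below the all-gene median, and this direction turned to 0.035 on the values as deposited, where the pseudocount and the filter both act on GAPDH-scaled values and 12993 genes were tested, and to 0.01 on those values over the same 11894 genes. At least 1.5-fold above the all-gene median were 4 of 77 (MRPS6, MRPL21, MRPL48 and MRPL16), where 12.5% of all tested genes were, and at least 1.5-fold below it were 3 (MRPL51, MRPS35 and MRPS11), where 9.17% of all tested genes were. Among genes with a mean of at least 10 FPKM, 3 of 72 members and 7.1% of all genes were called lower. The 95% counting interval lay above 0 for 14 members (18.2%) and below 0 for 13 (16.9%), against 20.2% and 21.1% of 11001 tested genes with an annotated length, and against 26.4% and 27.7% of those with a mean of at least 10 FPKM. The SD of the 77 changes was 0.42, or 0.34 without MRPS6, against a root mean square counting SE of 0.17, so the members differed among themselves by more than counting error. The large subunit genes had a median of -0.06, which turned to 0.06 on the deposited values, and the small subunit genes of -0.13. The bacterial type was at -0.15 and the mitochondrial type at 0.12. MRPL55, a mitochondrial-type protein of the large subunit that was next above 0 after the called genes, was at 21.01 and 32.6 FPKM with a change of 0.55 (counting SE 0.21), and MRPS2, a small subunit protein with a bacterial counterpart, was at 49.8 and 38.2 FPKM with a change of -0.43 (counting SE 0.10).

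MRPS6 encodes the small subunit counterpart of bacterial protein S6 and lies at chr21:35445524-35515334 (hg19, plus strand). In HeyC2 it was at 51.1 FPKM in the control and 237 with TET1, and in SKOV3 at 128 and 80.8 FPKM. The HeyC2 TET1 library was the highest of the 4 and the highest value of any member. The relative log2 change was 2.13 (counting SE 0.09) in HeyC2, a 4.38-fold difference, and -0.85 (counting SE 0.09) in SKOV3. SLC5A3, which has the promoter window printed above in common with MRPS6, was at 4.72 FPKM in the HeyC2 control and 23.3 in HeyC2 TET1, and at 14.6 and 14.3 in SKOV3. Its relative log2 change was 2.03 in HeyC2 and -0.22 in SKOV3, so both genes of this start were higher with TET1 in HeyC2. They share 265 exon bases on 1 strand, and fragments from this stretch cannot be assigned to one of them without the rest of the transcript. The 39 tested genes within 5 Mb of MRPS6 that are not members, SLC5A3 among them, had a median of -0.10 in HeyC2. The plot of members against their neighbours shows this.

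The lowest changes in HeyC2 were those of the 2 members on the short arm of chromosome 12. MRPL51, a large subunit protein of the mitochondrial type, was at 149 FPKM in the control and 70.4 with TET1 in HeyC2, and at 110 and 77.7 in SKOV3. Its relative log2 change was -1.13 (counting SE 0.14) in HeyC2 and -0.68 (counting SE 0.15) in SKOV3. MRPS35, a small subunit protein of the mitochondrial type, was at 30.3 and 17.7 FPKM in HeyC2 and at 64.7 and 49.5 in SKOV3, with relative log2 changes of -0.80 (counting SE 0.13) and -0.57 (counting SE 0.08). The 95% counting interval of both genes lay below 0 in both lines, and MRPS35 was not past 1.5-fold in SKOV3. Over the other 146 tested genes of this arm the median was -0.72 in HeyC2, the lowest of 40 chromosome arms, with 88.4% of them below the all-gene median, against a median of 0.00 over 136 genes in SKOV3. The exons of MRPL51 overlap those of NCAPD2, a condensin subunit gene on the opposite strand, over 383 bases, and NCAPD2 was at 55.9 and 12.7 FPKM in HeyC2. Whether the libraries kept the strand is not given in the sources used here, so fragments from this stretch cannot be told apart. Exon overlaps with another gene were found for 22 members, among them MRPL11, MRPL37, MRPL49, MRPS7, MRPS27 and MRPS34.

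MRPS11 and MRPL46, the members with neighbouring starts, differed in HeyC2 by more than their counting error. MRPS11, a bacterial-type protein of the small subunit, was at 18.2 and 12.2 FPKM in HeyC2 and at 20.4 and 18.7 in SKOV3. MRPL46, a mitochondrial-type protein of the large subunit, was at 13.3 and 16.9 FPKM in HeyC2 and at 17.7 and 19.6 in SKOV3. In GENCODE the ends of these genes lie 63 bases apart on chromosome 15. The relative log2 changes in HeyC2 were -0.60 (counting SE 0.15) for MRPS11 and 0.27 (counting SE 0.22) for MRPL46, and in SKOV3 they were -0.32 (counting SE 0.13) and -0.05 (counting SE 0.20). In all, 22 members had a partner gene on the opposite strand that starts within 1000 bases and passed the filter in both lines. MRPL27 and its partner EME1, a DNA repair nuclease subunit gene, had like values, at -0.19 and -0.21 in HeyC2 and -0.83 and -0.77 in SKOV3. MRPL57 and SKA3, a kinetochore gene, were at 0.19 and -0.77 in HeyC2 and at -0.63 and -1.72 in SKOV3. These pairs are examples, and agreement between partners was not summarised over the 22 members.

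**Figure D2:**
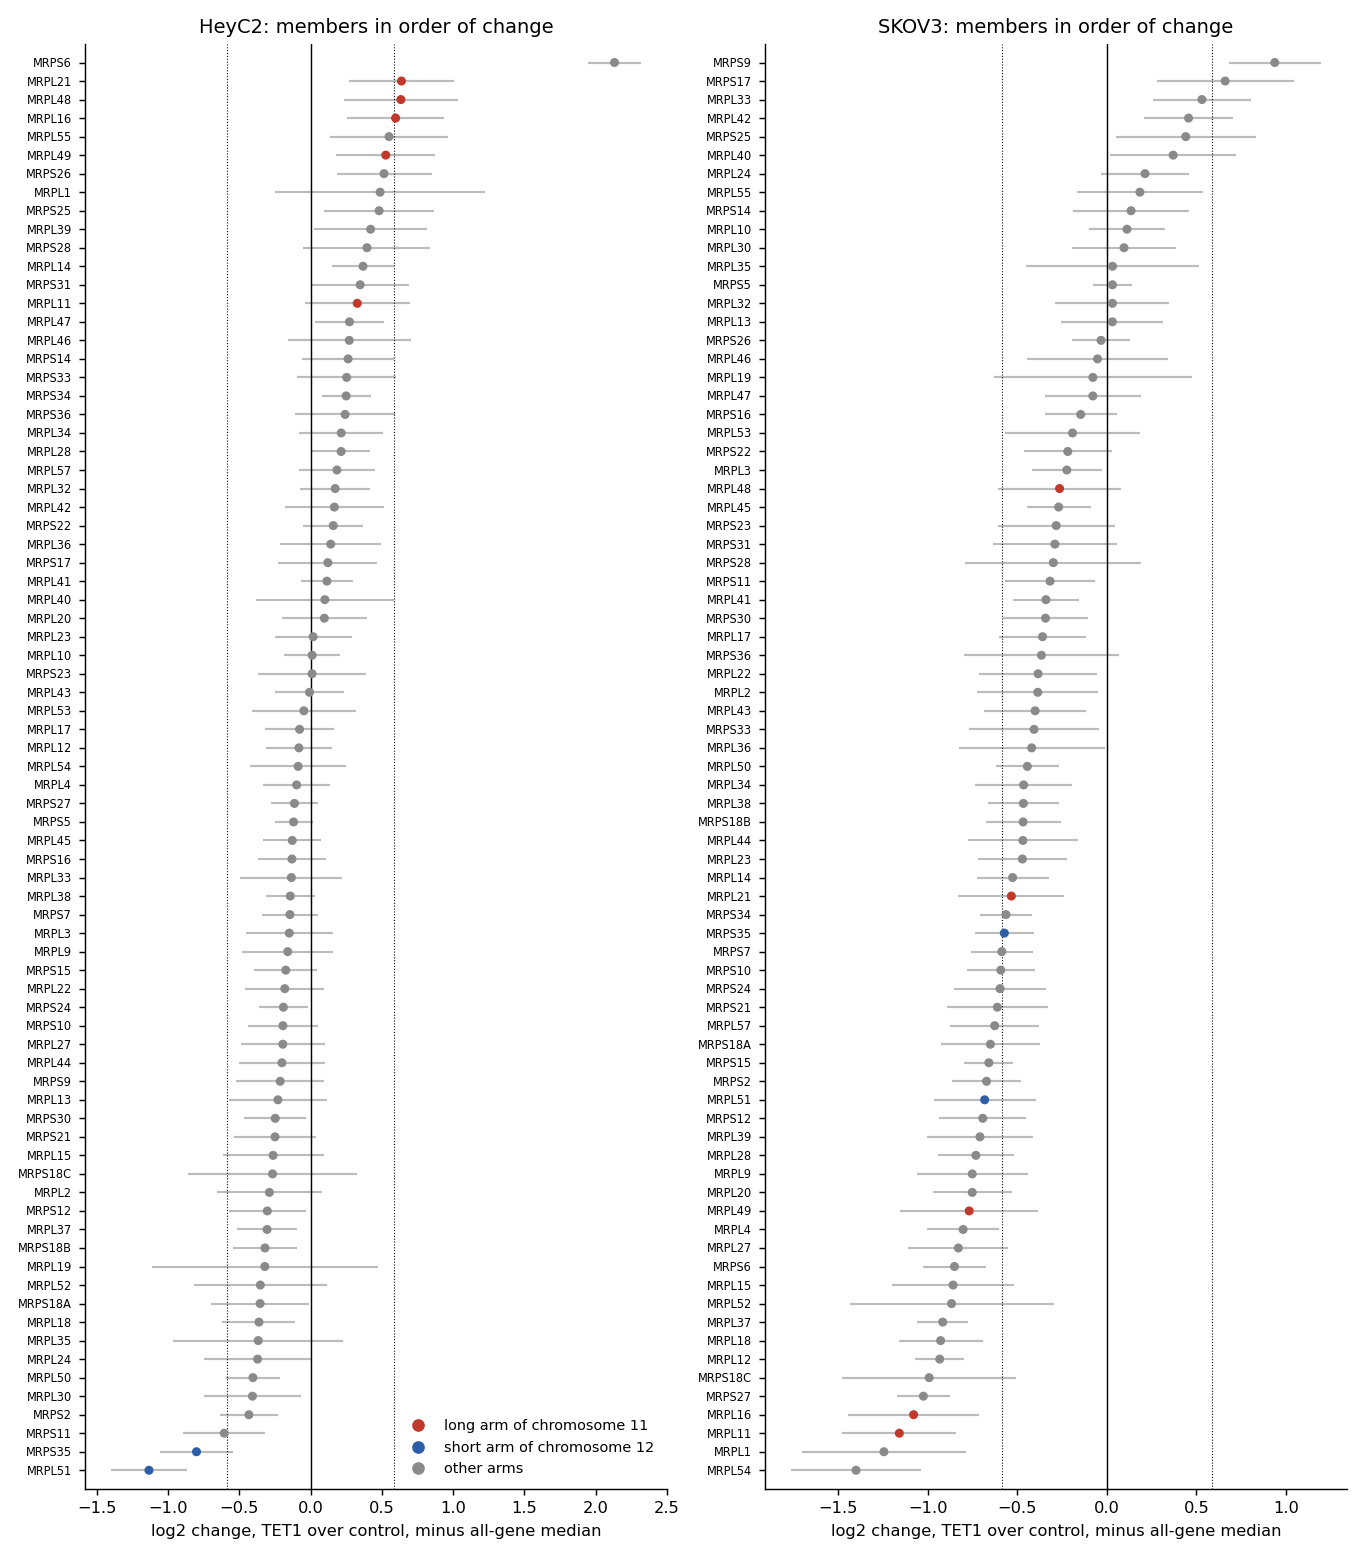
The 77 genes in order of relative log2 change in HeyC2 (left) and SKOV3 (right); horizontal axis, log2 of TET1 over control minus the all-gene median, with bars for the 95% counting interval and dotted lines at 1.5-fold. The intervals cover counting error only, since each condition has 1 library. MRPS6 stands alone at 2.13 in HeyC2, and in SKOV3 62 of 77 points lie below 0.

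In SKOV3 most members were lower with TET1 than the all-gene median. The median relative log2 change was -0.44, 62 of 77 lay below the all-gene median, and the direction was the same under each alternative scaling and filter tried, between -0.48 and -0.20. At least 1.5-fold below the all-gene median were 29 of 77 (37.7%), where 18.2% of all tested genes were, and at least 1.5-fold above it were 2 (MRPS9 and MRPS17), where 20.7% of all tested genes were. These shares depend on the genes used as the reference: among genes with a mean of at least 10 FPKM, 17 of 75 members (22.7%) and 15.8% of all genes were called lower, with a median of -0.30 for the members. Rescaling each library to the same sum (TPM, the per-length share of each gene) moved the all-gene median to 0.25, and 13 members were then called lower and 6 higher, where 11% and 32.9% of all genes were. Centring on the upper quartile moved it to 0.17, with 15 members called lower and 5 higher, where 12.2% and 27.8% of all genes were. Across all tested genes of SKOV3 the change with TET1 was lower at higher control levels (Spearman rho of -0.51 over 13013 genes, the control level being part of both measures), and in the members rho was -0.46. The 95% counting interval lay below 0 for 50 members (64.9%) and above 0 for 6 (7.79%), against 30.8% and 25.3% of 12023 tested genes with an annotated length, and against 44.6% and 24.7% of those with a mean of at least 10 FPKM. The SD of the changes was 0.45 against a root mean square counting SE of 0.15.

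Lower values were found in both subunits. The large subunit genes had a median relative log2 change of -0.45, with 18 of 48 called lower and 0 called higher. The small subunit genes had a median of -0.41, with 11 of 29 called lower and 2 higher. Of all tested genes, 18.2% were called lower and 20.7% higher. The bacterial type was at -0.50 and the mitochondrial type at -0.36. The lowest member was MRPL54, a large subunit protein of the mitochondrial type, which was at 81.8 FPKM in the SKOV3 control and 34.9 with TET1 and at 52.7 and 51.7 in HeyC2. Its relative log2 change was -1.40 (counting SE 0.18) in SKOV3 and -0.09 (counting SE 0.17) in HeyC2. MRPL1, which in bacteria forms the stalk at the exit of transfer RNA, was at 20.98 and 9.60 FPKM in SKOV3 and at 3.85 and 6.08 in HeyC2, with relative log2 changes of -1.24 (counting SE 0.23) and 0.49 (counting SE 0.38). MRPS27, a small subunit protein with RNA-binding repeats, was at 55.9 and 31.0 FPKM in SKOV3 and at 32.7 and 31.5 in HeyC2. Its change in SKOV3 was -1.02 (counting SE 0.08). MRPL12, the stalk protein that recruits translation factors and also binds the mitochondrial RNA polymerase, was the highest member in the SKOV3 control at 198 FPKM and was at 118 with TET1, a relative log2 change of -0.93 (counting SE 0.07). In HeyC2 it was at 50.6 and 49.8 FPKM. The 29 members called lower in SKOV3 ranged from -1.40 (MRPL54) to -0.59 (MRPS7, an early-binding protein of the small subunit head, at 87.5 and 66.3 FPKM).

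A few members went the other way in SKOV3. MRPS9, a bacterial-type protein of the small subunit head, was at 20.1 FPKM in the SKOV3 control and 45.2 with TET1, and at 20.5 and 18.3 in HeyC2. Only the SKOV3 TET1 library stood apart from the other 3. The relative log2 change was 0.94 (counting SE 0.13) in SKOV3 and -0.21 (counting SE 0.16) in HeyC2. MRPS17, of the same type and subunit, was at 11.2 and 21.02 FPKM in SKOV3 and at 16.3 and 18.6 in HeyC2, with a change of 0.66 (counting SE 0.20) in SKOV3. MRPL33 was at 91.2 and 151 FPKM in SKOV3 (relative log2 change 0.53), and MRPL42 at 16.4 and 26.2 (0.46). MRPS25 was not past 1.5-fold in either line and was at 5.27 and 8.11 FPKM in HeyC2 and 5.13 and 8.50 in SKOV3, with relative log2 changes of 0.48 and 0.44, each with a counting SE of 0.20. Its exons overlap those of NR2C2, a nuclear receptor gene on the opposite strand, over 7157 bases. Of the 3 versions of the bacterial S18 protein, MRPS18A, MRPS18B and MRPS18C were at -0.35, -0.32 and -0.27 in HeyC2 and at -0.65, -0.47 and -0.99 in SKOV3. The counting SEs were 0.17, 0.12 and 0.30 in HeyC2, where none of the 3 was past 1.5-fold and the 95% counting interval of MRPS18C included 0, and 0.14, 0.11 and 0.25 in SKOV3.

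**Figure D3:**
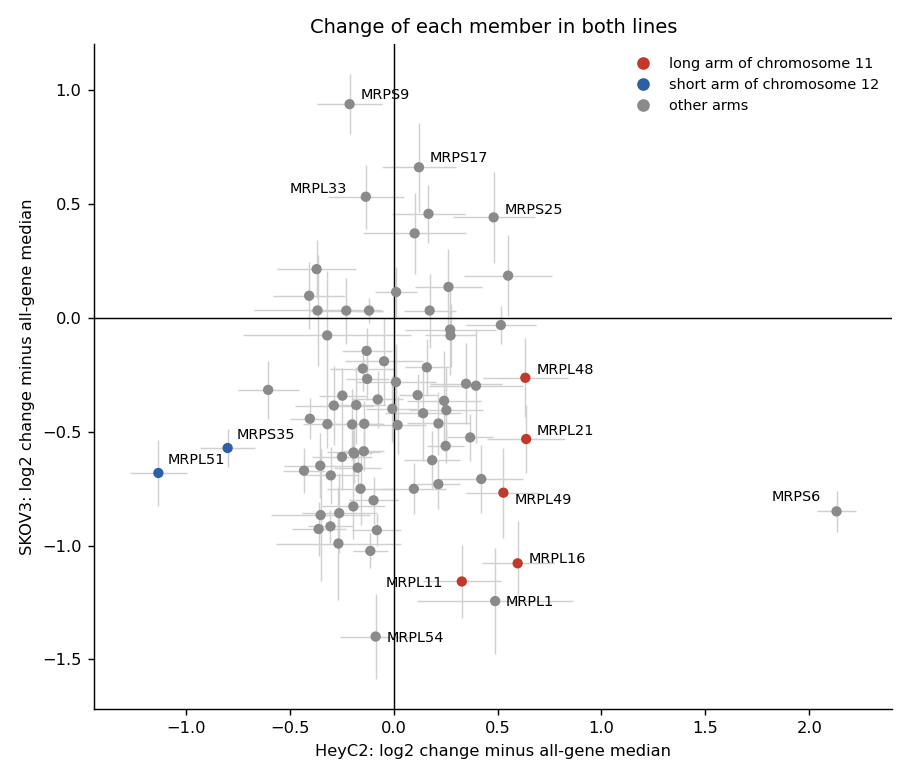
Relative log2 change of each of the 77 genes in HeyC2 (horizontal) and SKOV3 (vertical), with bars of 1 counting SE; red points lie on the long arm of chromosome 11 and blue points on the short arm of chromosome 12. The 5 red points lie to the right of 0 and below 0, the 2 blue points lie below 0 in both lines, and the cloud shows no slope.

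The changes of the members in HeyC2 did not follow those in SKOV3. Across the 77 genes Pearson's r was -0.003 and Spearman's rho 0.08 (0.08 and 0.11 without MRPS6), where all 11134 genes tested in both lines had an r of 0.14. Most members were below the all-gene median in SKOV3: 36 members (46.8%) were below the all-gene median in both lines, against 29.5% of the 11134 genes, and 26 (33.8%) were above it in HeyC2 and below it in SKOV3, against 24.2%, while 8 (10.4%) were above it in both, against 25.7%, and 7 (9.09%) were below it in HeyC2 and above it in SKOV3, against 20.7%. With 95% counting intervals that leave out 0 in both lines, 8 members were above 0 in HeyC2 and below it in SKOV3 (10.4%, against 6.98% of 10355 genes, and 10.7% against 10.1% at a mean of at least 10 FPKM), and 0 were the reverse (against 4.6% and 5.45%). The relative log2 change was higher in HeyC2 than in SKOV3 for 62 of 77 members, against 53.7% of all genes, and the median difference was 0.39, against 0.06 for all genes. It was smaller under some alternatives given at the end. Of the gene lists described below, the cytosolic ribosomal protein genes had a median difference of 0.38 and the mitochondrial aminoacyl-tRNA synthetase genes 0.37. The other lists lay between 0.08 and 0.18. The values of each line come from a table of its own, with its own control.

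The members on the long arm of chromosome 11 differed between the lines as a group. All 5, MRPL11, MRPL16, MRPL21, MRPL48 and MRPL49, were above the all-gene median in HeyC2 and below it in SKOV3, with medians of 0.60 and -0.77, and these directions were the same under each alternative scaling. MRPL16, a bacterial-type protein that contacts transfer RNA, was at 23.9 and 38.2 FPKM in HeyC2 and at 38.7 and 20.5 in SKOV3, with relative log2 changes of 0.60 (counting SE 0.17) and -1.08 (counting SE 0.19). MRPL11, the base of the factor-binding stalk, was at 13.7 and 18.1 FPKM in HeyC2 and at 33.3 and 16.6 in SKOV3, with changes of 0.33 (counting SE 0.19) and -1.16 (counting SE 0.16). MRPL21 was at 25.5 and 41.9 FPKM in HeyC2 and at 59.2 and 46.6 in SKOV3. The 95% counting interval of MRPL11 in HeyC2, from -0.04 to 0.70, includes 0, and MRPL21 was not past 1.5-fold in SKOV3. MRPL48 was at 16.2 and 26.8 FPKM in HeyC2 and at 30.3 and 28.8 in SKOV3, where its 95% counting interval, from -0.60 to 0.08, includes 0. MRPL49 was at 43.3 and 65.5 FPKM in HeyC2 and at 58.7 and 39.0 in SKOV3. The median of the other genes of this arm was 0.30 over 423 genes in HeyC2, with 22.9% below the all-gene median, and -0.27 over 442 genes in SKOV3, with 66.1% below. Between the first and the last member (chr11:59573613-73576178, hg19) it was 0.32 over 198 genes and -0.43 over 210 genes. The 2 members on the short arm, MRPL17 and MRPL23, had medians of -0.03 in HeyC2 and -0.41 in SKOV3.

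The relative log2 change of each member was also set beside the median of the other tested genes within 5 Mb. Across the 77 members Pearson's r was 0.48 and Spearman's rho 0.37 in HeyC2, and 0.64 and 0.64 in SKOV3. Without MRPS6 and the 2 members on the short arm of chromosome 12, r was 0.52 and 0.64 over 74 members, and without the 5 members on the long arm of chromosome 11 as well it was 0.36 and 0.62 over 69 (rho 0.22 and 0.62). For all other placed genes r was 0.25 over 10923 genes in HeyC2 and 0.26 over 11943 in SKOV3, and for those with a mean of at least 10 FPKM it was 0.30 and 0.29. The points share libraries and, for near genes, neighbours. In SKOV3 the arm with the lowest median was the long arm of chromosome 4 (-0.42), which carries MRPL1 and MRPS18C, both called lower. In HeyC2 the arm with the highest median was the short arm of chromosome 20 (0.40), which carries MRPS26, at 19.8 and 29.9 FPKM and a relative log2 change of 0.52 (counting SE 0.17). Of the 30 arms with members, the median of the members and that of the other genes had the same sign in 22 and opposite signs in 8 in each line. The long arm of chromosome 17 had a median of 0.21 in SKOV3 and its 7 members of -0.47, the long arm of chromosome 19 had 0.22 in SKOV3 and its 1 member -0.69, and the long arm of chromosome 8 had 0.25 in HeyC2 and its 3 members -0.23. MRPS9 and MRPS6 differed in this respect, since the neighbours of MRPS9 in SKOV3 had a median of 0.67 (32 genes) and those of MRPS6 in HeyC2 of -0.10 (39 genes).

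**Figure D4:**
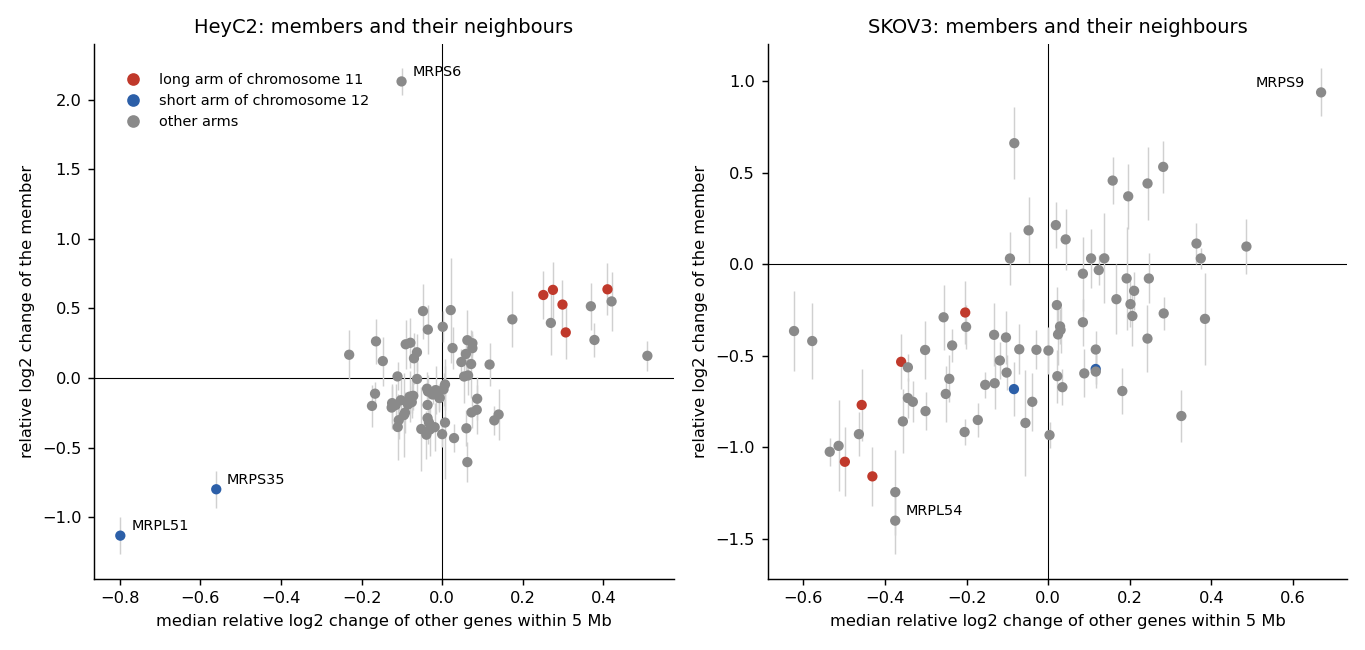
Relative log2 change of each of the 77 genes (vertical, with bars of 1 counting SE) against the median relative log2 change of the other tested genes within 5 Mb (horizontal), for HeyC2 (left) and SKOV3 (right). Points rise to the right in both lines, with r of 0.48 and 0.64; MRPS6 lies far above the rest in HeyC2 with neighbours near 0.

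The control libraries differed in the level of single members. The log2 ratio of HeyC2 over SKOV3 control, relative to its all-gene median, had a median of -0.16 over the members, and 48 of 77 were below 0, so the members were somewhat lower in HeyC2. At least 1.5-fold higher in SKOV3 were 17 of 77, where 28.6% of 12488 tested genes were, and at least 1.5-fold higher in HeyC2 were 5, where 29% were. Both counts were under the share of all genes. These levels are set across separate tables. MRPS26, a small subunit protein of the mitochondrial type, was at 19.8 FPKM in the HeyC2 control and 99.0 in the SKOV3 control, a relative log2 ratio of -2.00. MRPL1 was at 3.85 and 20.98 FPKM (-1.91), and MRPL12 at 50.6 and 198 FPKM (-1.68). In the other direction MRPS24 was at 165 FPKM in HeyC2 and 84.7 in SKOV3 (1.22), and MRPL32, a zinc-binding protein matured by a mitochondrial protease, at 50.3 and 31.2 FPKM (0.94). MRPS15 (-1.37) and MRPL37 (-1.12) were further genes higher in SKOV3.

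The other genes of mitochondrial translation were summarised by list, with no test between lists. Of all tested genes, 12.5% were called higher and 9.17% lower in HeyC2, and 20.7% higher and 18.2% lower in SKOV3. A list of 8 genes whose symbols do not start with MRPL or MRPS held mitochondrial ribosomal proteins and OXA1L, a membrane protein that binds this ribosome. Of these, 7 were tested under such a symbol, with medians of -0.10 in HeyC2 and -0.26 in SKOV3. GADD45GIP1, a large subunit protein also known for cell cycle inhibition, was at 130 and 133 FPKM in HeyC2 and at 212 and 116 in SKOV3, and AURKAIP1, a small subunit protein, at 106 and 92.6 in HeyC2 and at 211 and 123 in SKOV3. These were the 2 of 7 called lower in SKOV3, at -1.06 and -0.97, and 0 of 7 were called in HeyC2. The 26 assembly and rRNA modification factors had medians of -0.05 and -0.17, with 1 called higher and 0 lower in HeyC2 and 1 higher and 3 lower in SKOV3, and the 14 translation factors -0.05 and -0.18, with 0 called in HeyC2 and 1 lower (MTRF1L, a release factor) in SKOV3. Both of these medians changed sign in each line under some alternatives.

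The list of 22 mitochondrial aminoacyl-tRNA synthetase genes, whose enzymes charge transfer RNAs, also holds QRSL1, GATB and GATC, which encode subunits of an amidotransferase, and GARS and KARS, which encode the cytosolic enzymes too. Its medians were -0.14 in HeyC2 and -0.37 in SKOV3 (-0.45 over 20 of them after the length and GC correction, against -0.38 for the members). In HeyC2 1 was called higher and 2 lower, where 12.5% and 9.17% of all tested genes were. In SKOV3 1 was called higher and 8 lower, where 20.7% and 18.2% of all tested genes were. GARS was the 1 called higher in SKOV3, at 27.3 and 62.4 FPKM (0.97), and was called lower in HeyC2, at 100.1 and 58.7 FPKM (-0.82), as was TARS2, at 9.47 and 6.19 FPKM (-0.60). NARS2, on the long arm of chromosome 11, was at 6.56 and 13.5 FPKM in HeyC2 and at 11.5 and 14.3 in SKOV3, with relative log2 changes of 0.88 and 0.10. YARS2, on the short arm of chromosome 12, was at 23.4 and 17.3 FPKM in HeyC2 and at 49.7 and 35.4 in SKOV3, with changes of -0.47 and -0.67. The 5 genes of mitochondrial transcription had medians of 0.01 in HeyC2 and -0.23 in SKOV3, both of which changed sign under some alternatives. Among them TFB2M, a transcription initiation factor, was called higher in HeyC2 (6.35 and 10.9 FPKM), and POLRMT, the mitochondrial RNA polymerase, was called lower in SKOV3 (76.3 and 51.4 FPKM). No gene encoded by mitochondrial DNA is listed in the tables, and the RNAs this ribosome translates were not analysed here.

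The cytosolic ribosomal protein genes, which build the ribosome that makes the members themselves, had medians of 0.04 in HeyC2 and -0.35 in SKOV3 over 82 of 86 listed genes that were tested. In HeyC2 3 were called higher and 1 lower, where 12.5% and 9.17% of all tested genes were. In SKOV3 2 were called higher and 13 of 82 lower, where 20.7% and 18.2% of all tested genes were, against 29 of 77 members lower. The cytosolic genes were at far higher levels, with a median of 1090 FPKM in the HeyC2 control and 700 in the SKOV3 control. Together they took 19.1% of all FPKM of the control library in HeyC2 and 12.4% in SKOV3, where the members took 0.60% and 0.89%. Relative to all genes the cytosolic list was higher in the HeyC2 control than in the SKOV3 control, with a median log2 ratio of 0.93, whereas that of the members was -0.16. Many cytosolic ribosomal protein genes have processed pseudogenes. In GENCODE 36 of the 77 members have pseudogenes named after them, 80 in all, of which 3 have values of their own here. How fragments from such copies were assigned was not tested.

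**Figure D5:**
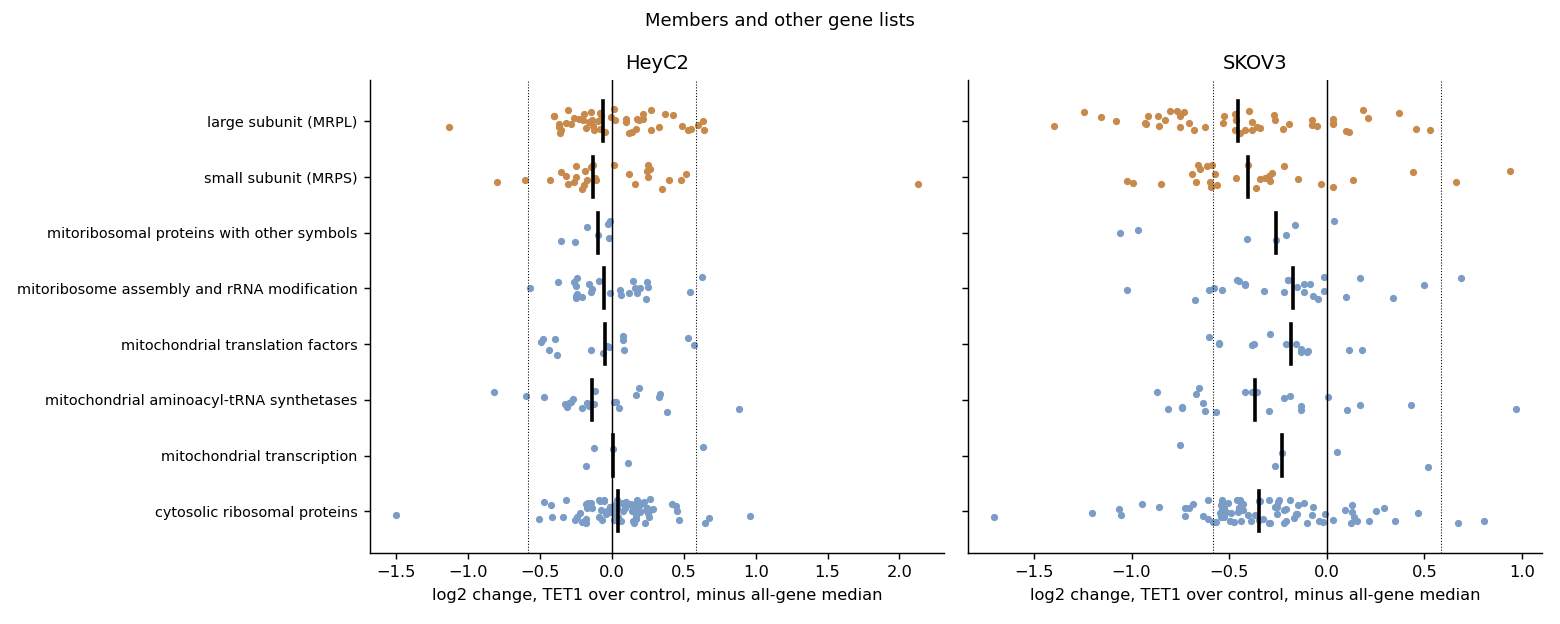
Relative log2 change of each gene (points) and the median (black bar) for the large and small subunit members (orange) and other gene lists (blue), in HeyC2 (left) and SKOV3 (right); dotted lines mark 1.5-fold and the vertical scatter within a row has no meaning. In SKOV3 every list lies with its median below 0, from -0.17 for assembly factors to -0.45 for the large subunit, and in HeyC2 all medians lie between -0.14 and 0.04.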

How the data were processed

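RNA from 1 library per condition was sequenced as 150 bp pairs. Per the labels, the authors aligned the reads to hg19 with Bowtie2 2.2.6 and obtained FPKM with RSEM 1.2.17. The labels do not mention a scaling of the TET1 columns to GAPDH. It was inferred from GAPDH values equal in control and TET1 of each line (5417.35 in HeyC2 and 2248.44 in SKOV3) and from the value steps. The scale was recovered as the grid of 0.01 FPKM steps, on which at least 99.7% of the distinct low values lay, and was divided out. Changes were computed with a pseudocount of 1 and a mean of at least 1 FPKM and centred on the all-gene median, and calls used 1.5-fold. Depth was estimated from whole-fragment steps of 2612 genes with a single transcript. Positions came from GENCODE v44 on GRCh37 by symbol or older symbol (22638 of 26506 genes). The calculations used Python 3.11.15, numpy 2.4.6 and pandas 2.3.3 and were tested on simulated data. The named members were those past 1.5-fold, the extremes of change and level in either line and the S18 and chromosome 12 short-arm genes; SLC5A3, the MRPL46 and MRPS11 pair, the long arm of chromosome 11 and neighbouring genes were chosen after their values were seen. The members, lists, comparisons and alternatives were chosen with earlier results of these data known. The alternatives tried were other pseudocounts, filters, scalings and thresholds, a length and GC correction, and leaving out chromosome 12p, with the deposited values over the same genes added after seeing the data.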

Additional observations from a re-analysis of the deposited data

Results flagged for a closer look

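For 8 of the 77 members the change went in opposite directions in the lines, each with a 95% counting interval that leaves out 0, and in all 8 it was higher with TET1 in HeyC2 and lower in SKOV3. By the same rule 6.98% of 10355 genes tested in both lines with an annotated length went this way, or 10.1% of those with a mean of at least 10 FPKM, against 10.4% of the members. The difference between the lines (relative log2 change in HeyC2 minus that in SKOV3) was 2.98 for MRPS6, 1.67 for MRPL16, 1.30 for MRPL49, 1.17 for MRPL21, 1.13 for MRPL39, 0.95 for MRPL28, 0.89 for MRPL14 and 0.81 for MRPS34. The difference was not tested, since each line has 1 library per condition. Of the 8 genes, 3 lie on the long arm of chromosome 11, which holds 5 of the 77 members. The direction in both lines was the same for all 8 under each alternative scaling, filter and pseudocount tried. Since the 8 were picked for intervals away from 0, this was likely from the start.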

How the results depend on the processing

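No paired analysis was possible because each condition has 1 library, and for the same reason no library could be left out. The HeyC2 median of the members (-0.09) turned to 0.035 on the values as deposited. It turned to 0.012 on those values over the genes of the reported filter (chosen after seeing the data). On the values as deposited 7 members were called higher and 2 lower, where 13.04% of all 12993 tested genes were called higher and 12.9% lower. Leaving out the short arm of chromosome 12 also removed MRPL51 and MRPS35, both called lower in HeyC2, so a lower count was fixed in advance. Of the 75 members left, 1 was called lower (8.68% of all genes). At 2-fold 1 was called higher and 1 lower (4.11% and 2.82% of all genes), and at 1.2-fold 17 and 17 (27.8% and 26.3%). In SKOV3 the median (-0.44) was -0.25 without a filter, -0.30 at 10 FPKM, -0.27 with upper-quartile centring and -0.20 as TPM. In this order 14, 17, 15 and 13 members were called lower, against 6.4%, 15.8%, 12.2% and 11% of all genes. Called higher were 5, 4, 5 and 6 members, against 16.7%, 17.9%, 27.8% and 32.9% of all genes. The shares without a filter are over all 26506 genes, including those at 0 FPKM. At 2-fold 0 members were called higher and 5 lower (10.1% and 6.49% of all genes), and at 1.2-fold 6 and 54 (34.8% and 34.1%). Under the same 4 settings the difference between the lines (0.39) was 0.26, 0.25, 0.20 and 0.14. Uncentred, the control difference (-0.16) was -0.43. Without a filter 72.2% of all SKOV3 calls were higher, against 53.3% with it. With pseudocounts of 0.1 and 0.01 the SKOV3 median was -0.47 and -0.48, and with the length and GC correction -0.38. For the 46 named members, 640 values stayed within 1 counting SE of the reported value, 179 moved further and 0 changed the sign of a called change. A called change is at least 0.585 in size, and the all-gene median moved to 0.25 at most, so a change of sign was unlikely from the start. Depth limits the low members most: MRPL1 rests on an estimated 25 fragments in the HeyC2 control, and the spread between replicates is unknown.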
